A study of Mus musculus with 6 samples.

Results

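Oxidative phosphorylation is the last stage of respiration, in which 5 protein complexes of the inner mitochondrial membrane pass electrons to oxygen and make ATP. Its genes were taken from the table of 54532 genes by name and biotype: protein-coding rows named after the subunits of complex I (Nduf and mt-Nd genes), complex II (Sdh), complex III (Uqcr and *mt-Cytb*), complex IV (Cox and mt-Co) or complex V (Atp5 and mt-Atp). Of 95 rows with such a name, 90 had 10 or more counts in at least 3 of the 6 libraries and were kept, 12 from mitochondrial DNA and 78 from nuclear DNA. Complex I held 42 of them, complex II 4, complex III 9, complex IV 17 and complex V 18, with *Ndufa4*, now known as a complex IV subunit, counted there, and *Atp5s*, which carries the name but is no subunit, counted with complex V. The 5 rows below the count rule, *mt-Atp8*, *Cox8b*, *Cox7b2*, *Cox8c* and an additional row named *Atp5o*, held at most 4 counts in any library. The name patterns leave out, among others, *Cox4i1* and *Cox4i2*, the forms of a further complex IV subunit, and *Ndufab1* of complex I.

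*Gli1* is a transcription factor and target of Hedgehog signaling, and the study asked how the RNA of cartilage cells that express it differs from that of their neighbours. Gli1-CreERT2 mice with a tdTomato reporter (Ai9), on a c57BL/6 background and 1 month old, were given tamoxifen, which turns the reporter on in cells with *Gli1* promoter activity, and were harvested 24 h later. CD45-CD31-Ter119- cells were sorted into tdTomato+ (Gli1+) and tdTomato- (Gli1-) populations, with 3 libraries each, and both populations carry the same alleles and the same treatment. The reporter marks recombination and not present *Gli1* RNA, and the Gli1- population can hold cells in which recombination did not occur. The labels give the tissue as growth plate, whereas the study's text describes costal cartilage for these libraries.

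Each respiratory complex, apart from complex II, combines subunits made inside the mitochondrion from mitochondrial DNA with subunits made in the cytosol from nuclear genes. The mitochondrial genes are transcribed as long joint transcripts from both strands of a circular genome present in many copies per cell, and the nuclear subunits are transcribed singly, with the NRF, GABP and YY1 factors and the PGC-1 coactivators as known regulators. Chondrocytes live in tissue without blood vessels and are known for a largely glycolytic metabolism.

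The libraries held 17114101 to 18602482 counts. *Gli1* itself stood at 4.54, 6.37 and 7.96 CPM (counts per 1000000, with library totals scaled by TMM) in the Gli1+ libraries and at 0.722, 1.26 and 2.43 in the Gli1- libraries, without overlap. All 10 chondrocyte markers checked, *Acan* and *Col2a1* among them, had 10 or more counts in at least 3 libraries. Their summed level was 20132 and 30089 CPM in Gli1+ and Gli1- replicate 2, against 7892.5 to 9497 CPM in the others. *Col2a1* made up much of this, at 12210 and 13502 CPM, whereas *Acan* and *Sox9* were lowest in replicate 2 of each population. 2 libraries stood apart in other ways. Gli1+ replicate 1 held a count for 15000 genes against 20666 to 23360 in the others. In Gli1- replicate 1 the summed level of 8 leukocyte markers was 3524 CPM against 13.05 to 81.2 in the other 5 libraries, with *S100a8* at 1142 CPM and *Ptprc*, which encodes CD45, at 54.5. The endothelial markers summed to at most 12.95 CPM and the erythroid markers to at most 19.1 CPM in any library. Results are therefore also given without Gli1+ replicate 1 or Gli1- replicate 1 where this changes them.

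7 of the 12 mitochondrial genes have an annotated copy on chromosome 1, a stretch of mitochondrial sequence within the nuclear genome between 24611535 and 24616197 (mm10, minus strand). Reads from such a gene and its copy cannot be told apart where the sequences are identical, which bears on every level given for these genes. The identity over the annotated copy was 100% for *mt-Co2*, *mt-Co3*, *mt-Atp6*, *mt-Nd4l* and *mt-Nd4*, 99.7% for *mt-Nd3* and 98.8% for *mt-Co1*. The windows below show why. Bases 311 to 370 of *mt-Co2* (chrM:7323-7382, plus strand, mm10; the count table names the chromosome MT) and of its copy *Gm28661* (chr1:24615196-24615255, minus strand) are the same, and the first 60 bases of *mt-Nd3* (chrM:9459-9518, plus strand) and of *Gm28438* (chr1:24613060-24613119, minus strand) hold the single base that differs over 345 aligned bases, in capitals.
mt-Co2: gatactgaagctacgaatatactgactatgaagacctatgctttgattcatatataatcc
Gm28661: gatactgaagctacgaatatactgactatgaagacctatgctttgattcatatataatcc
mt-Nd3: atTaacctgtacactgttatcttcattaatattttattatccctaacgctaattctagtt
Gm28438: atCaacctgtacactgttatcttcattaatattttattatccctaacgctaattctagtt

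The genes with a copy over nearly their whole length had low deposited counts. Per kb of gene length, the 6-library mean level was 12.7 CPM for *mt-Co2*, 8.60 for *mt-Co3*, 7.02 for *mt-Nd3*, 5.93 for *mt-Atp6* and 3.48 for *mt-Nd4l*. The 5 genes without an annotated copy had mean levels of 1031 CPM per kb for *mt-Nd1*, 1025 for *mt-Cytb*, 579 for *mt-Nd2*, 373 for *mt-Nd5* and 215 for *mt-Nd6*. The genes with a copy of a part only also lay far above the fully covered genes. *mt-Co1*, of which 31.8% is covered, was above all 5 genes without a copy, with 1854 CPM per kb. *mt-Nd4*, of which 63.6% is covered, lay within their range, with 305. The chromosome 1 copies held few counts as well: per library the 7 copies summed to between 199 and 844 counts. *mt-Atp8*, which has 43 bases shared with *mt-Atp6*, had 0 to 4 counts. It has no annotated copy of its own, but it lies between *mt-Co2* and *mt-Atp6*, which both have one. The chromosome 1 sequence between those 2 copies was not compared with it. How reads with several alignments were counted is not given in the sources used here, and its part in these levels was not tested. Levels of the fully covered genes are therefore not comparable with those of the other genes, while their comparison between libraries rests on 6 to 291 counts per library. The split between gene and copy also differed by library. For *mt-Nd3* the gene held 50 counts and the copy 329 in Gli1+ replicate 1, against 57 and 6 in Gli1- replicate 3.

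**Figure D1:**
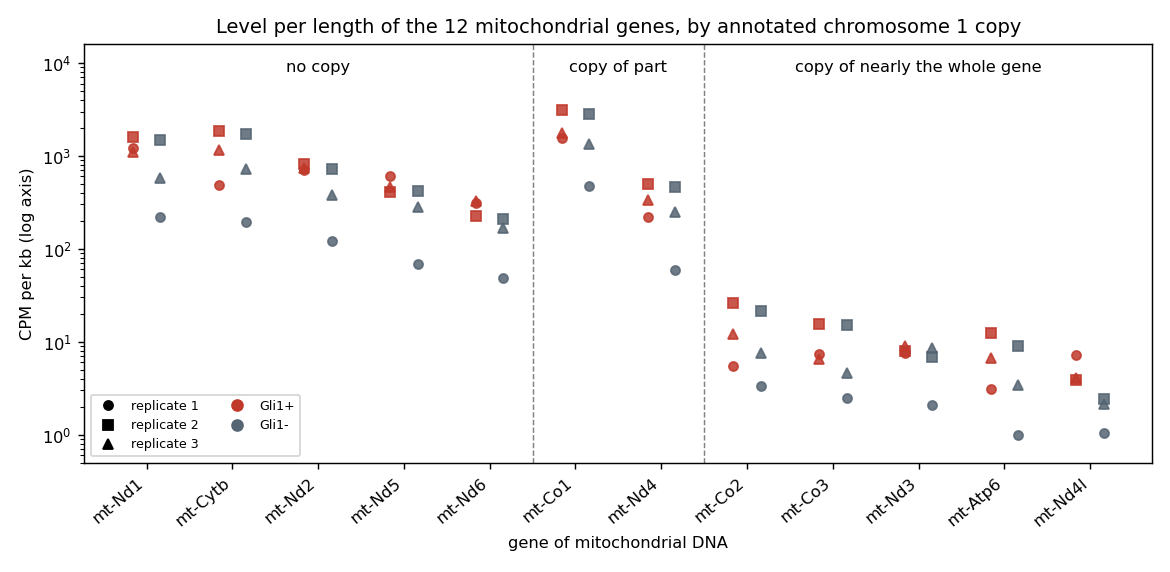
Level per kb of gene length (CPM per kb, log axis) of the 12 mitochondrial genes in each library, Gli1+ in red and Gli1- in grey, with a marker shape per replicate. Genes are split by whether the annotation has no chromosome 1 copy, a copy of part or a copy of nearly the whole gene; the fully covered genes lie between 3.48 and 12.7 CPM per kb on average and the others between 215 and 1854, and Gli1- replicate 1 (grey circles) is the lowest library for every gene.

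No gene of oxidative phosphorylation passed the thresholds between Gli1+ and Gli1- cells. With |log2FC| > 1 and an adjusted p under 0.05 in edgeR's quasi-likelihood test, 0 of the 90 members and 0 of all 14801 genes tested (0.0%) were called. At an unadjusted p under 0.05 there were 0 members, against 514 of all genes (3.47%). The smallest unadjusted p among the members was 0.102, for *mt-Nd6*, and every adjusted p was 0.9999 or more. The point estimates of the 2 genomes lay on opposite sides of 0. The estimate was above 0 for all 12 mitochondrial members (median log2FC = 0.61) and for 18 of the 78 nuclear members (median log2FC = -0.15), that is, higher in Gli1+ cells. Over all genes the median log2FC was 0.0013 and 50.1% of genes were above 0, with 49.9% below. The 12 mitochondrial genes share transcripts and a genome, and the nuclear genes move together between libraries, so that these counts are not counts of independent observations. In RNA from many cells, fewer cells of a type and less RNA per cell cannot be told apart.

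**Figure D2:**
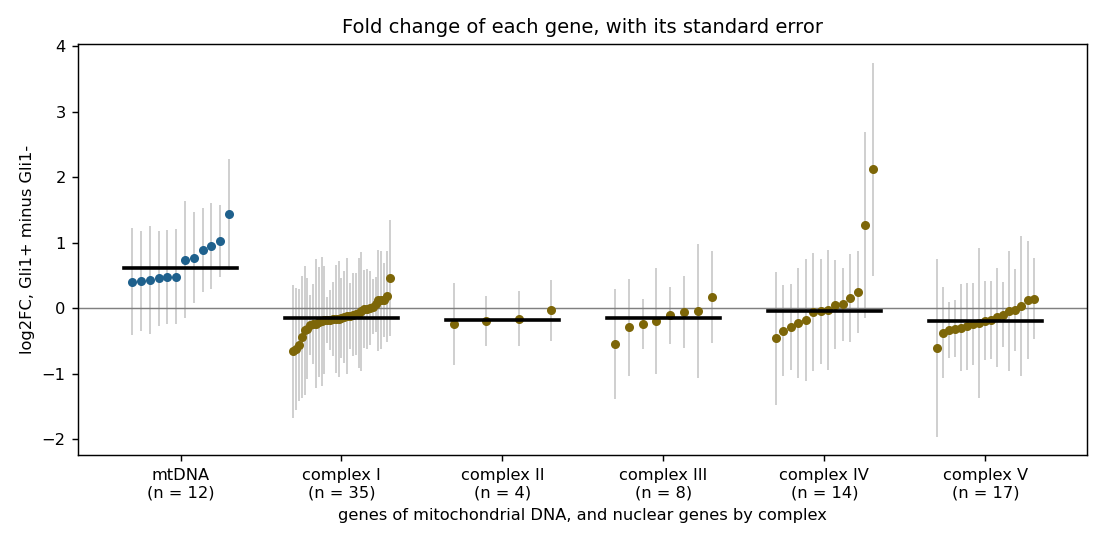
log2FC of Gli1+ against Gli1- cells for each gene, with its standard error, for the 12 genes of mitochondrial DNA (mtDNA, blue) and the nuclear genes of complexes I to V; black bars are medians. The mitochondrial genes lie between 0.40 and 1.43, the medians of the nuclear groups lie between -0.19 and -0.04, and the error bars of all nuclear genes but *Cox6a2* cross 0.

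The mitochondrial mRNA genes together took 0.672%, 0.985% and 0.774% of all counts in Gli1+ replicates 1 to 3 and 0.172%, 0.819% and 0.529% in the Gli1- replicates. Within each replicate number the Gli1+ library was the higher, but the populations overlapped, with means of 0.810% ± 0.160 and 0.507% ± 0.324 (SD, n = 3 each). The nuclear members together took 0.207%, 0.621% and 0.340% in Gli1+ cells and 0.410%, 0.587% and 0.323% in Gli1- cells. Here the populations overlapped, with both replicate 2 libraries at the top and Gli1+ replicate 1 at the bottom. The counts of mitochondrial over nuclear members gave ratios of 3.25, 1.59 and 2.28 in Gli1+ cells and 0.420, 1.40 and 1.64 in Gli1- cells. The Gli1+ library had the higher ratio in each of the 3 pairs, and Gli1+ replicate 2 lay below Gli1- replicate 3.

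**Figure D3:**
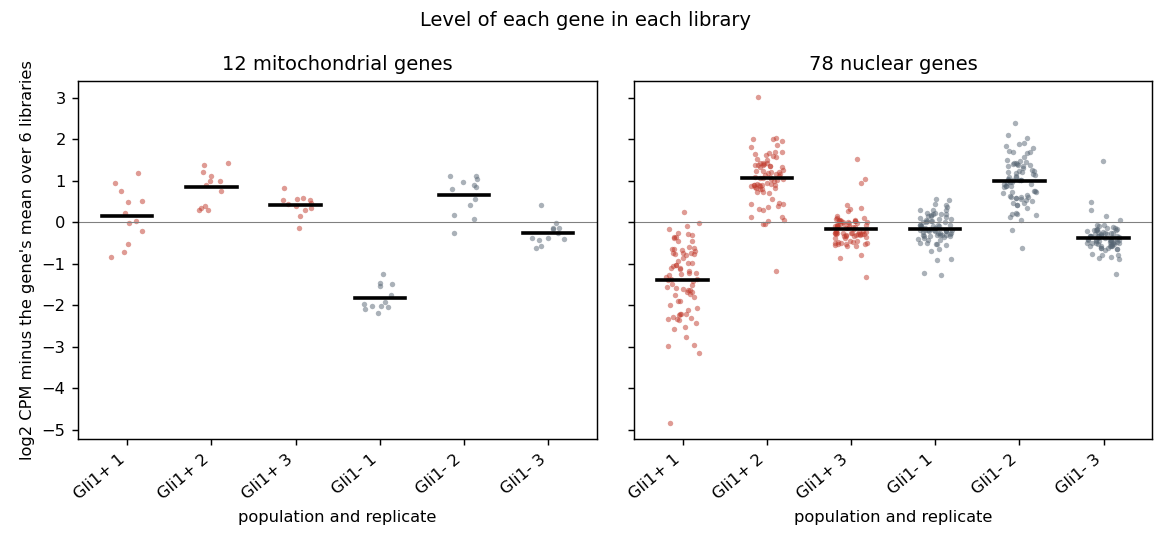
Level of each member in each library, as log2 CPM minus the gene's mean over the 6 libraries (1 point per gene, black bar the mean), for mitochondrial genes on the left and nuclear genes on the right. The mitochondrial mean is lowest in Gli1- replicate 1 (-1.81), and the nuclear mean is lowest in Gli1+ replicate 1 (-1.39) and highest in both replicate 2 libraries (1.06 and 1.01).

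Of the complex I subunits made from mitochondrial DNA, *mt-Nd6* differed with the least uncertainty. It is the subunit gene on the opposite strand to the others, at chrM:13552-14070. The strand setting of the counts is not given in the sources used here, so reads from transcripts of the other strand may be included. Levels of *mt-Nd6* were 162, 118 and 169 CPM in Gli1+ cells and 25.3, 108 and 87.3 CPM in Gli1- cells. The Gli1+ libraries all lay above the Gli1- libraries, the nearest being Gli1+ replicate 2 and Gli1- replicate 2. The log2FC was 1.02 ± 0.56 (SE; unadjusted p = 0.102 by edgeR). *mt-Nd4l* was the other member without overlap in the upward direction, at 2.16, 1.16 and 1.21 CPM in Gli1+ cells and 0.310, 0.728 and 0.633 CPM in Gli1- cells, from 41 counts at most. Its log2FC was 1.43 ± 0.85 (unadjusted p = 0.128 by edgeR). 2 of 90 members thus lay wholly higher, against 4.04% of all genes, and 1 lay wholly lower, against 4.45%.

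*mt-Nd1* stood at 1150, 1539 and 1043 CPM in Gli1+ cells and at 209, 1425 and 551 CPM in Gli1- cells. *mt-Nd2* stood at 725, 854 and 761 CPM against 125, 749 and 391 CPM. *mt-Nd5*, which shares 14 bases with *mt-Nd6* on the other strand, stood at 1100, 751 and 838 CPM against 126, 763 and 508 CPM. All 3 encode membrane subunits of the proton-pumping arm, and in all 3 Gli1- replicate 1 was far below the other 5 libraries while Gli1- replicate 2 was close to its Gli1+ partner. Their log2FCs were 0.77 ± 0.70, 0.89 ± 0.64 and 0.94 ± 0.66, with edgeR p-values of 0.299, 0.203 and 0.187. *mt-Nd4*, also of the membrane arm, had a log2FC of 0.45 ± 0.72, and *mt-Nd3*, with 14 to 60 counts per library, had 0.48 ± 0.73.

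The mitochondrial genes of complexes III to V had log2FCs between 0.40 and 0.74. *mt-Cytb*, the cytochrome b of complex III, was at 560, 2129 and 1318 CPM in Gli1+ cells and at 225, 1974 and 831 CPM in Gli1- cells, a log2FC of 0.40 ± 0.82. *mt-Co1*, the catalytic subunit of complex IV and the member with the highest level per length, was at 2425, 4869 and 2722 CPM against 730.5, 4386 and 2056 CPM, a log2FC of 0.48 ± 0.72. *mt-Co2* and *mt-Co3*, the other mitochondrial subunits of the catalytic core, had log2FCs of 0.43 ± 0.82 and 0.41 ± 0.76, and *mt-Atp6*, which forms part of the proton channel of complex V, 0.74 ± 0.90. Replicate 2 was the highest library of both populations for each of these 5 genes, and Gli1- replicate 1 was the lowest of all 6 libraries for all 12 mitochondrial members, against 12.7% of all genes tested. For *mt-Cytb*, *mt-Co1*, *mt-Co2*, *mt-Co3* and *mt-Atp6* the log2FC was smaller than its standard error.

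The mitochondrial result rested in part on Gli1- replicate 1, the library with the leukocyte markers. Without it the median log2FC of the 12 genes was 0.17, and *mt-Nd4*, *mt-Cytb*, *mt-Co2* and *mt-Co3* had log2FCs between -0.07 and -0.00, while that of *mt-Nd6* was 0.61. The part of these cells in the result was not tested. The mitochondrial genes also differ from the nuclear members in base composition, with a median GC content of 37.4% against 51.3%. After the trend of log2FC with GC content over all genes was removed, the mitochondrial median was 0.22 and the nuclear median -0.13. The 5 genes with no annotated copy had a median of 0.89, and with the counts of the chromosome 1 copies added the median of the 12 genes was 0.65, 2 settings chosen after seeing the data.

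The libraries with the same replicate number varied together, and fitting that number as a block gave 11 of the 12 mitochondrial genes a larger estimate. In edgeR the blocked median was 0.90 for the mitochondrial and -0.26 for the nuclear members, and 1 member, *Ndufb11* (log2FC = -0.89, unadjusted p = 0.0475), had an unadjusted p under 0.05, against 8.61% of all genes. In DESeq2 with the block, 414 genes (2.8%) passed both thresholds and 0 members did. 5 members had an unadjusted p under 0.05 there, against 11.7% of all genes: *mt-Nd1*, *mt-Nd2*, *mt-Nd5*, *mt-Nd6* and *Ndufb11*, and the smallest adjusted p was 0.198 for *mt-Nd2*. 11 of 12 mitochondrial members were higher in the Gli1+ library of all 3 pairs, against 17.6% of all genes. *mt-Nd5* was the exception, with a difference of -0.02 on the log2 scale in pair 2. The size differed between pairs: the median difference was 1.81 in pair 1, 0.14 in pair 2 and 0.70 in pair 3.

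The 78 nuclear members were set by the library much more than by the population. Both replicate 2 libraries lay above the other 4 for 67 of the 78 genes, against 25.1% of all genes tested, and Gli1+ replicate 1 was the lowest library for 66, against 36.1%. The level of a nuclear member followed the mean of the other nuclear members over the 6 libraries with a median Pearson correlation of 0.95, over 0.8 for 68 of 78 genes, whereas the mitochondrial members followed that mean with a median of 0.39 and none over 0.8. These correlations describe 6 libraries that share depth and preparation. The summed chondrocyte markers were also highest in both replicate 2 libraries, and a link with the nuclear members was not tested. The members that followed the others least were *Cox7a1* (-0.45), *Uqcrc1* (0.08), *Ndufb2* (0.29) and *Ndufs1* (0.32), chosen here after their values were seen.

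The direction of the nuclear median depended on single libraries. Without Gli1+ replicate 1 it was 0.22, without Gli1- replicate 2 it was 0.44, without Gli1+ replicate 2 it was -0.90, and without both libraries of replicate 1, a setting chosen after seeing the data, it was 0.06. By pair, 3 of 78 nuclear members were higher in Gli1+ cells in pair 1, 39 in pair 2 and 56 in pair 3, with median differences of -1.14, 0.00 and 0.20 on the log2 scale. 12 members were lower in all 3 pairs, against 19.8% of all genes, and 0 were higher in all 3.

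The shift of Gli1+ replicate 1 went with gene length. In that library the 20 nuclear members under 1000 bases lay at a mean of -1.86 on the centred log2 scale, the 29 of 1000 to 2000 bases at -1.58 and the 29 of 2000 bases or more at -0.88, and the Spearman correlation with length was 0.47 over the 78 genes. In the replicate 2 libraries the order was the opposite, with correlations of -0.54 and -0.47. The same held over all 14801 genes, with correlations of 0.41 in Gli1+ replicate 1 and -0.42 and -0.32 in the replicate 2 libraries. The trend was thus not particular to respiratory genes, but in every length class the members shifted further than all genes of like length. In Gli1+ replicate 1 all genes under 1000 bases lay at -1.08 and those of 1000 to 2000 bases at -1.06. All longer genes formed a class with a median length of 3384.5 bases, at -0.53, and a class with a median of 7320 bases, at 0.25. The members of 2000 bases or more had a median length of 3146 bases. In Gli1+ and Gli1- replicate 2 the members under 1000 bases lay at 1.29 and 1.25, against 0.67 and 0.59 for all such genes. Members of 2000 bases or more lay at 0.67 and 0.68, against 0.16 and 0.15 for the class with the median of 3384.5 bases. The class of the longest genes lay at -0.27 and -0.25. These are descriptions over genes that share a library, and RNA quality was not given in the sources used here. With the trend of log2FC with length over all genes removed, the nuclear median was -0.07 and the mitochondrial median 0.68. The trends within single libraries were not removed.

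**Figure D4:**
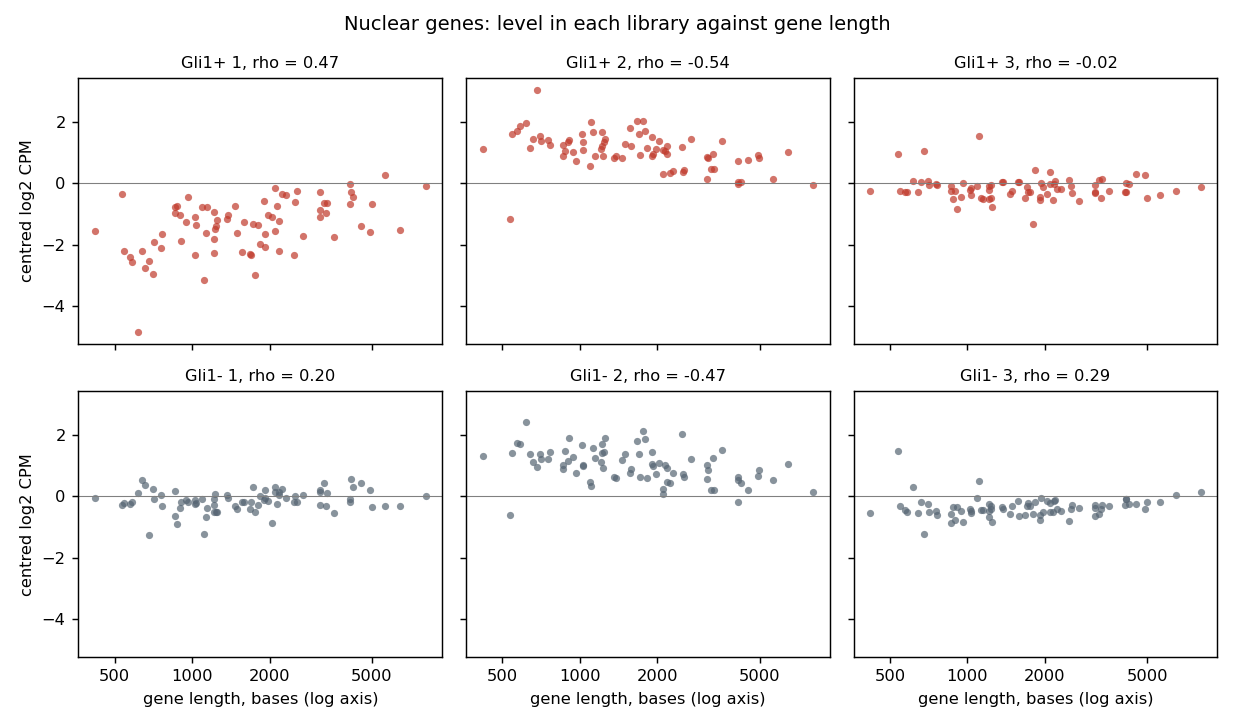
Centred log2 CPM of the 78 nuclear members against gene length (log axis) in each library, Gli1+ on top and Gli1- below, with Spearman's rho in each title. Short genes lie lowest in Gli1+ replicate 1 (rho = 0.47) and highest in both replicate 2 libraries (rho = -0.54 and -0.47).

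Among the nuclear subunits of complex I, 8 of 35 were higher and 27 lower in Gli1+ cells (median log2FC = -0.15). *Ndufa2* and *Ndufb11*, accessory subunits, had the highest levels per length. *Ndufa2* stood at 6.60, 115 and 29.3 CPM in Gli1+ cells and at 29.7, 118 and 25.9 CPM in Gli1- cells, and *Ndufb11* at 10.6, 105 and 21.8 CPM against 34.5, 146 and 31.2 CPM. The populations overlapped in both, and for *Ndufb11* the Gli1+ library was the lower in each pair. *Ndufb11* and *Ndufb10* had the smallest p-values of the group, with log2FCs of -0.62 ± 0.93 and -0.57 ± 0.85 (unadjusted p = 0.523 and 0.524 by edgeR). The 7 core subunits, which carry the flavin, the iron-sulfur clusters or the quinone site, had a median of -0.18. *Ndufab1*, left out by the name patterns, had a log2FC of 0.13 ± 0.42.

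*Ndufs1*, the largest iron-sulfur subunit of complex I, was the nuclear member that did not overlap, and is named for that. It stood at 32.7, 33.8 and 32.0 CPM in Gli1+ cells and at 34.98, 38.0 and 38.8 CPM in Gli1- cells. The Gli1+ libraries were all lower, by little: the means were 32.9 ± 0.909 and 37.3 ± 2.02 CPM (SD, n = 3) and the log2FC -0.18 ± 0.35 (unadjusted p = 0.614 by edgeR). Its highest level was 1.21 times its lowest, the smallest range of any nuclear member, and with 8086 bases it was the longest.

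Complex II, succinate dehydrogenase, links the citric acid cycle to the respiratory chain and is made from nuclear genes alone. All 4 of its genes had a lower mean in Gli1+ cells, with log2FCs between -0.25 and -0.03. *Sdha*, the flavoprotein, stood at 111, 117 and 93.5 CPM in Gli1+ cells and at 99.985, 164 and 105 CPM in Gli1- cells, and the populations overlapped (log2FC = -0.20 ± 0.38). *Sdhd*, a membrane anchor, stood at 21.4, 111 and 56.8 CPM against 63.3, 113 and 48.1 CPM, with Gli1+ replicate 1 the lowest of the 6 (log2FC = -0.25 ± 0.63).

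In complex III, 1 of 8 nuclear subunits was higher in Gli1+ cells and the median log2FC was -0.15. *Uqcrh* and *Uqcr10*, small subunits, had the highest levels per length. *Uqcrh* stood at 35.6, 236 and 66.3 CPM in Gli1+ cells and at 64.8, 253 and 70.1 CPM in Gli1- cells. *Uqcr10* stood at 5.75, 126 and 28.4 CPM against 30.1, 111 and 24.4 CPM, a range of 22.0 times between libraries with no separation of the populations. The smallest p-values belonged to *Uqcr11*, at 2.38, 25.2 and 9.38 CPM against 16.5, 29.6 and 7.81 CPM (log2FC = -0.55 ± 0.84, unadjusted p = 0.533), and to the core protein gene *Uqcrc1*, at 54.4, 64.4 and 67.3 CPM against 98.2, 58.7 and 63.0 CPM (log2FC = -0.24 ± 0.38, unadjusted p = 0.547), both by edgeR. For *Uqcrc1* the difference came from Gli1- replicate 1, and without that library the log2FC was 0.03.

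Complex IV held the nuclear member with the highest level per length, and several of its subunits exist as tissue forms. *Cox8a*, the common form of the smallest subunit, had the highest level per length of all nuclear members, 221 CPM per kb, and stood at 18.7, 264 and 71.5 CPM in Gli1+ cells and at 74.4, 226 and 68.6 CPM in Gli1- cells. *Cox7a2l* followed with 158 CPM per kb and stood at 90.6, 289 and 109 CPM against 119, 365 and 113 CPM. 6 of the 14 nuclear complex IV members were higher in Gli1+ cells, and the median log2FC was -0.04.

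The common forms made up nearly all of each family, with *Cox7a2l* counted among the COX7A genes by its name only. Per length, *Cox6a1* was 98.3% ± 1.53 of the COX6A pair in Gli1+ cells and 99.6% ± 0.283 in Gli1- cells (SD, n = 3), with the remainder from *Cox6a2*, the heart and skeletal muscle form. *Cox6b1* was 98.0% ± 1.98 and 98.8% ± 1.14 of its pair, with the remainder from the testis form *Cox6b2*. Of the COX7A genes, *Cox7a2l* was 77.7% ± 3.74 and 75.5% ± 1.69, *Cox7a2* 20.8% ± 3.68 and 22.7% ± 2.06, and the muscle form *Cox7a1* 1.53% ± 1.37 and 1.81% ± 2.04. The muscle form *Cox8b* had at most 4 counts in any library. The shares did not separate the populations in any of these families.

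The tissue forms *Cox6a2* and *Cox6b2* had the smallest p-values and the largest fold changes of complex IV, on few counts. *Cox6a2* held 0, 82 and 23 counts in Gli1+ cells and 3, 17 and 3 in Gli1- cells, which gave a log2FC of 2.12 ± 1.63 (unadjusted p = 0.230 by edgeR). *Cox6b2* held 0, 62 and 52 counts against 6, 17 and 24, with a log2FC of 1.27 ± 1.42 (unadjusted p = 0.399 by edgeR). Gli1+ replicate 1 had 0 counts of both, which allows a level of up to 0.158 CPM (3 counts, counting error only), so that the populations overlapped. Of 14 skeletal muscle markers, 12 were also at 0 in that library, and their summed level was 10.4 to 41.7 CPM over the libraries, with *Acta1* at most 5.21 CPM. It was highest in the replicate 2 libraries, where *Cox6a2* had 82 and 17 counts, but came there mostly from *Tnnt3*, at 29.7 and 18.6 CPM. *Ttn* was instead highest in Gli1+ replicate 1, at 12.4 CPM. In Gli1+ replicate 3, with 23 counts of *Cox6a2*, the summed level was 12.8 CPM. The part of muscle RNA in the *Cox6a2* level was not tested. *Cox4i1*, left out by the name patterns, stood at 93.5, 408 and 135 CPM against 165, 442 and 119 CPM and *Cox4i2* at 2.16, 22.0 and 3.46 CPM against 3.71, 18.8 and 5.44 CPM, in the order of the other nuclear genes.

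In complex V, the ATP synthase, 3 of 17 nuclear members, *Atp5s* among them, were higher in Gli1+ cells and the median log2FC was -0.19. *Atp5a1* and *Atp5b*, the alpha and beta subunits of the catalytic head, had the highest levels per length, 128 and 118 CPM per kb, and also the smallest p-values of the group. *Atp5a1* stood at 318, 426 and 321 CPM in Gli1+ cells and at 448, 576 and 317 CPM in Gli1- cells (log2FC = -0.33 ± 0.43, unadjusted p = 0.463 by edgeR). *Atp5b* stood at 356, 502 and 480 CPM against 602, 653 and 406 CPM (log2FC = -0.31 ± 0.43, unadjusted p = 0.488 by edgeR). For both, Gli1- replicates 1 and 2 were the highest libraries and Gli1- replicate 3 was among the lower ones. Of the 3 genes for the c subunit, which forms the rotating ring, *Atp5g3* was 48.4% ± 9.88 of the sum per length in Gli1+ cells and 51.0% ± 11.996 in Gli1- cells, *Atp5g2* 43.4% ± 12.7 and 42.4% ± 13.9, and *Atp5g1* 8.21% ± 3.36 and 6.58% ± 2.08. The balance shifted by replicate and not by population: *Atp5g2* was 57.6% and 58.4% in the replicate 2 libraries and 33.1% to 39.5% in the others.

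Promoters of the nuclear members were searched for letters of known regulators of respiratory genes. RefSeq promoters (GRCm38.p6, 250 bases before to 50 after the start) were found for 64 of the 78 members. CGCATGCG, the core of the NRF1 motif, was in 14.1% of member genes against 2.07% of all 27025 genes, CCGGAAG (ETS factors such as GABPA) in 25.0% against 9.93%, and AAGATGG (YY1) in 15.6% against 7.28%, on either strand. At least 1 of the 3 was in 45.3% of member genes against 17.9%. The 27025 genes were all those with a promoter and were not limited to genes tested here. Whether the motifs go with the levels of the members was not tested. For each motif, the promoter of the member with the highest level per length that held it is given, with matches to any of the 3 in capitals: *Cox6a1* for NRF1 (chr5:115348909-115349208, minus strand), *Cox8a* for ETS (chr19:7217567-7217866, minus strand) and *Cox7c* for YY1 (chr13:86046746-86047045, minus strand). A match is a run of letters and not a shown binding site.
Cox6a1: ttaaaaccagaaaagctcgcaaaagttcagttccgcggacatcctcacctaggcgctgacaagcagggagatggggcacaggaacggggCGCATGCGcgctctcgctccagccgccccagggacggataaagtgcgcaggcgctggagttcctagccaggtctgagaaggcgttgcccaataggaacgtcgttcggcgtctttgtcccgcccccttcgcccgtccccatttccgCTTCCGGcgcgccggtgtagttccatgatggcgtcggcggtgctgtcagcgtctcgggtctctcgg
Cox8a: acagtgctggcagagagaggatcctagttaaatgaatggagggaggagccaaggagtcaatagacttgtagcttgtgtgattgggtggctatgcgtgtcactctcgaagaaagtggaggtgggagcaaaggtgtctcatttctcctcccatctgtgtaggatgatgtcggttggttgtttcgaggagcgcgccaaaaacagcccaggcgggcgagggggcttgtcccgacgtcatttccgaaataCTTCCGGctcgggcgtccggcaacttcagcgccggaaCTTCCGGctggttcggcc
Cox7c: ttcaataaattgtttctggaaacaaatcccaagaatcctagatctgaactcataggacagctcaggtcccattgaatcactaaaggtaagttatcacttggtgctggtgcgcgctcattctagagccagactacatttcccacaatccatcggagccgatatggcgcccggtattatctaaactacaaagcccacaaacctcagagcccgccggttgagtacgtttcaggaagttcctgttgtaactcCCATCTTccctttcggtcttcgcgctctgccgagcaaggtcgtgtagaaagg

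Other genes of the respiratory system were compared in the same fit. Of 46 assembly factors tested, 25 were higher and 21 lower in Gli1+ cells (median log2FC = 0.06). Of 28 genes of mitochondrial transcription and DNA maintenance, 21 were higher (median 0.17), and of 77 mitochondrial ribosome genes, 51 were higher (median 0.10). Of 27 citric acid cycle and pyruvate dehydrogenase genes, 15 were higher (median 0.08), and of 13 genes of uncoupling and defence against oxygen radicals, 4 were higher (median -0.38). In these 5 lists edgeR called 0 genes, and no unadjusted p was under 0.05. The most abundant genes of the transcription list, *Tbrg4*, *Lrpprc* and *Trmt10c*, had log2FCs of -0.11, 1.09 and 0.13, and *Lrpprc*, whose product stabilises mitochondrial mRNA, was highest in Gli1+ replicate 1 with 205 CPM against 14.4 to 78.01 CPM in the others. The mitochondrial ribosome genes shared the pattern of the nuclear subunits in part, with both replicate 2 libraries above the others for 41 of 77.

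Of the 13 nuclear regulators tested, 7 were higher and 1 had an unadjusted p under 0.05. This was *Ppargc1b*, which encodes the coactivator PGC-1beta, a regulator of mitochondrial gene programmes, and it is named here after its value was seen. It stood at 8.34, 1.23 and 9.33 CPM in Gli1+ cells and at 0.722, 0.198 and 0.422 CPM in Gli1- cells. The lowest Gli1+ library, replicate 2, was above the highest Gli1- library. The log2FC was 3.78 ± 0.97 (unadjusted p = 0.00445, adjusted p = 0.9999 by edgeR), and in DESeq2 with the replicate block its adjusted p was 0.000387. It passed both thresholds in 3 of 18 alternative settings, and its log2FC was 3.39 to 4.30 with single libraries left out. The most abundant regulators, *Pprc1*, *Nfe2l2* and *Yy1*, had log2FCs of -0.28, 0.08 and -0.29.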

How the data were processed

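The deposited table holds raw read counts per gene, which the authors made, per the submitters' processing notes, with HISAT2 2.0.5 (mm10) and featureCounts 1.5.0-p3 from poly-A-selected libraries; the annotation, the strand setting and the treatment of reads with several alignments are not given in the sources used here. All 6 libraries and all genes were fitted together with edgeR 4.0.16 (R 4.3.3): filterByExpr with a minimum count of 10 left 14801 genes, TMM factors scaled the totals, and glmQLFit and glmQLFTest were used with Benjamini-Hochberg adjustment. Genes were called at |log2FC| > 1 and adjusted p under 0.05. Centred levels are log2 CPM (prior count 2) minus the gene's mean. Lengths are those of the deposited table. They were not checked against the transcripts expressed here, and every ranking or share by level per length rests on them. GENCODE M21 and RefSeq gave positions and sequences. The scripts were tested on simulated counts.

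The replicate numbers were taken to pair the libraries: both populations came from the same mice per the study, and same-numbered libraries deviated together (correlations over genes of 0.223, 0.720 and 0.471), although Gli1+ replicate 1 correlated more with Gli1- replicate 3 (0.274), and Gli1+ replicate 3 also with Gli1- replicate 1 (0.107). DESeq2 1.42.0, other scalings, no filter, the replicate block, GC and length corrections (lowess, span 0.3) and leaving out each library were alternatives, with 3 more chosen after seeing the data. Genes given with values are all mitochondrial members, in each complex the nuclear members with the 2 highest levels per length and the 2 smallest p-values, fixed isoform families, and at most 3 abundant genes of each other list. The members and lists were chosen with earlier results of these data known. Without the block, p-values measure the spread between 3 libraries a population. With the block, they measure the spread of the differences within the 3 pairs.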

Additional observations from a re-analysis of the deposited data

How the results depend on the processing

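No member was called in edgeR or DESeq2 in any of the settings tried. The count of genes called over the whole table was 0 in the edgeR fit, 27 with the DESeq2 Wald test, 267 without the filter on low counts and 414 in DESeq2 with the replicate block. Members at an unadjusted p under 0.05 numbered 0, against 1 in edgeR with the replicate block, 1 with the block and a GC correction, 5 in DESeq2 with the block, and 0 to 2 with single libraries left out. Members whose populations did not overlap numbered 3 (3.33%, against 8.49% of all genes), and 3 to 16 with single libraries left out: 16 (17.8% against 27.3%) without Gli1+ replicate 3, 8 (8.89% against 16.8%) without Gli1- replicate 3 and 6 (6.67% against 14.6%) without Gli1+ replicate 2. Without both libraries of replicate 1 they numbered 6 (6.67% against 15.3%).

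The mitochondrial and nuclear medians moved most with single libraries left out. The mitochondrial median was then 0.17 to 1.44 and the nuclear median -0.90 to 0.44, on both sides of 0. No other setting went beyond these ranges. With the block and a GC correction together the mitochondrial median was 0.46. The signs of single genes turned as follows, and the cause was not tested. With the block and GC correction *Uqcrc1* was 0.0187, and with GC correction alone *mt-Nd3* was -0.0018. Without both libraries of replicate 1, *Uqcrc1* was 0.1094 and *Sdhd* 0.0498. Leaving out libraries gave log2FCs of -0.0175 to 1.1983 for *mt-Nd4*, -0.1057 to 1.3387 for *mt-Cytb*, -0.2885 to 1.4221 for *mt-Co2*, -0.0869 to 1.455 for *mt-Co3*, -2.1221 to 0.4796 for *Ndufb11*, -1.7359 to 0.4101 for *Ndufb10*, -1.6119 to 0.0168 for *Uqcr11*, -0.3769 to 0.1094 for *Uqcrc1*, -0.3593 to 0.0633 for *Sdha* and -0.9355 to 0.1773 for *Sdhd*. The mitochondrial direction was kept by *mt-Nd1*, *mt-Nd2*, *mt-Nd5*, *mt-Nd6*, *mt-Nd4l*, *mt-Co1* and *mt-Atp6* in the settings tried. Scaling by library totals, by DESeq2's size factors or without the mitochondrial chromosome turned no sign. Depth limited *mt-Nd4l*, *mt-Nd3*, *Cox6a2*, *Cox6b2*, *Cox7a1* and *Ndufb2*, with under 100 counts in every library. Counts were also low for *mt-Atp6* (13 to 139), *mt-Co2* (44 to 291) and *mt-Co3* (38 to 199).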

Other observations

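The mitochondrial ribosomal RNAs, which are not messenger RNAs and are counted here in poly-A-selected libraries, had estimates on the other side of 0 from the mitochondrial mRNA genes. *mt-Rnr2*, the large ribosomal RNA, stood at 3033, 4794 and 1535 CPM in Gli1+ cells and at 1139, 8766 and 2145 CPM in Gli1- cells, and *mt-Rnr1*, the small one, at 671, 2919 and 766 CPM against 403, 4158 and 1038 CPM. Their log2FCs were -0.36 ± 0.84 and -0.36 ± 0.94 (adjusted p = 0.9999 for both by edgeR), where the 12 mRNA genes all had estimates above 0, and with the replicate block their unadjusted p-values were 0.992 and 0.834. Gli1- replicate 1 was the lowest library for both, as for the mRNA genes, the replicate 2 libraries were the highest, and in pair 1 the Gli1+ library was the higher. The ribosomal counts divided by the mitochondrial mRNA counts were 0.575, 0.702 and 0.313 in Gli1+ cells and 1.01, 1.28 and 0.666 in Gli1- cells. The ratio was lower in the Gli1+ library of each of the 3 pairs, and the populations overlapped, since Gli1+ replicate 2 lay above Gli1- replicate 3. This pattern was chosen after the values were seen and was not tested.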
